A study of Mus musculus with 9 samples.

Results

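Stat5b binding was compared with Stat5a binding in mouse CD4+ T cells after 2 rounds of Th2 differentiation, with an IgG control immunoprecipitate of the same stage as background. The units of comparison were 33038 regions of the mm8 mouse genome build, obtained by joining the overlapping peaks of the deposited Stat5b list (33692 peaks) and Stat5a list (9791 peaks) and leaving out the mitochondrial chromosome. All 6 deposited peak lists of the series, joined in the same way, gave 43766 regions, so those of 2 rounds are the larger part. The series used chromatin immunoprecipitation and sequencing (ChIP-seq) with antibodies to Stat5b and to Stat5a and with IgG as a control. Libraries of differentiating cells at 8 h and 13 h are used here for comparison. Each antibody and stage has 1 library. The sources used here do not give the mouse strain, age and sex, the culture conditions or the number of animals pooled.

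Stat5a and Stat5b are a pair of closely related transcription factors, encoded by neighbouring genes, that are phosphorylated downstream of IL-2 and other cytokines whose receptors contain the common gamma chain. Once phosphorylated they dimerise, enter the nucleus and bind DNA at palindromic elements known as GAS sites. In CD4+ T cells Stat5 is known to open the Il4 locus, to raise expression of the IL-2 receptor alpha chain and to induce feedback inhibitors of cytokine signalling of the Cish and Socs family. Th2 cells are the helper T cells that secrete IL-4, IL-5 and IL-13.

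The Stat5b library held 7656900 mapped reads, the Stat5a library 6645271 and the IgG library 5787254. After collapsing reads with the same start and strand, 64.4% of the Stat5b reads, 61.0% of the Stat5a reads and 70.6% of the IgG reads were left. Levels are given as RPM, the reads whose 5′ ends fall in a region per 1000000 mapped reads of the library. Every main value was also computed with each start and strand counted once ("distinct starts"). Ratios carry exact conditional (Clopper-Pearson) 95% intervals and shares carry Wilson 95% intervals, and neither covers more than counting error, since without molecular identifiers PCR copies count as reads. With 1 library per antibody there is no replicate spread, no p-value is given, and the comparison is one of libraries.

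The Stat5b library consisted of 25 bp reads alone, whereas the Stat5a library mixed 3024320 reads of 25 bp with 3620951 of 24 bp, and 77.3% of the IgG reads were 24 bp long. In the Stat5a library only 0.650% of the 25 bp starts recurred among the 24 bp starts. By contrast, 48.4% of the starts in one 50% portion of the 25 bp reads recurred in the remainder, and 28.9% did so within the 24 bp reads. Whether the lengths mark separate immunoprecipitates, library preparations or lanes is not stated in the sources used here. The Stat5a values below are therefore also given for each read length where it changes them.

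A peak of both factors was present in 7817 regions (23.7%), called shared here. A Stat5b peak alone was present in 23886 regions (72.3%, Stat5b-only) and a Stat5a peak alone in 1335 regions (4.04%, Stat5a-only). Shared regions had a median width of 708 bp, Stat5b-only regions of 543 bp and Stat5a-only regions of 269 bp. The shared regions covered 6.18 Mb, the Stat5b-only regions 14.5 Mb and the Stat5a-only regions 0.373 Mb. Together the regions took up 19.0% of the Stat5b reads, 8.45% of the Stat5a reads and 2.72% of the IgG reads.

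Where both factors had a peak, the Stat5b level was the higher one in most regions. The median shared region held 7.31 RPM of Stat5b, 4.21 RPM of Stat5a and 0.691 RPM of IgG. Stat5b was above Stat5a in 86.3% of the 7817 shared regions, with a median ratio of 1.70 (log2 ratio 0.77). Summed over the shared regions the ratio was 1.87 (1.86 to 1.88). In Stat5b-only regions the medians were 3.40 RPM of Stat5b, 1.2 RPM of Stat5a and 0.518 RPM of IgG, and the median ratio was 3.35. In Stat5a-only regions they were 0.653, 1.96 and 0.173 RPM in the same order, and the median ratio was 0.347. These classes were set by the peak lists of the same libraries, so the ratios within them are descriptions. A level measured with the Stat5b antibody and one measured with the Stat5a antibody differ in factor and in antibody at once, and the share of each cannot be told apart here. Nor can more cells with a bound site be told apart from more binding per cell.

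**Figure D1:**
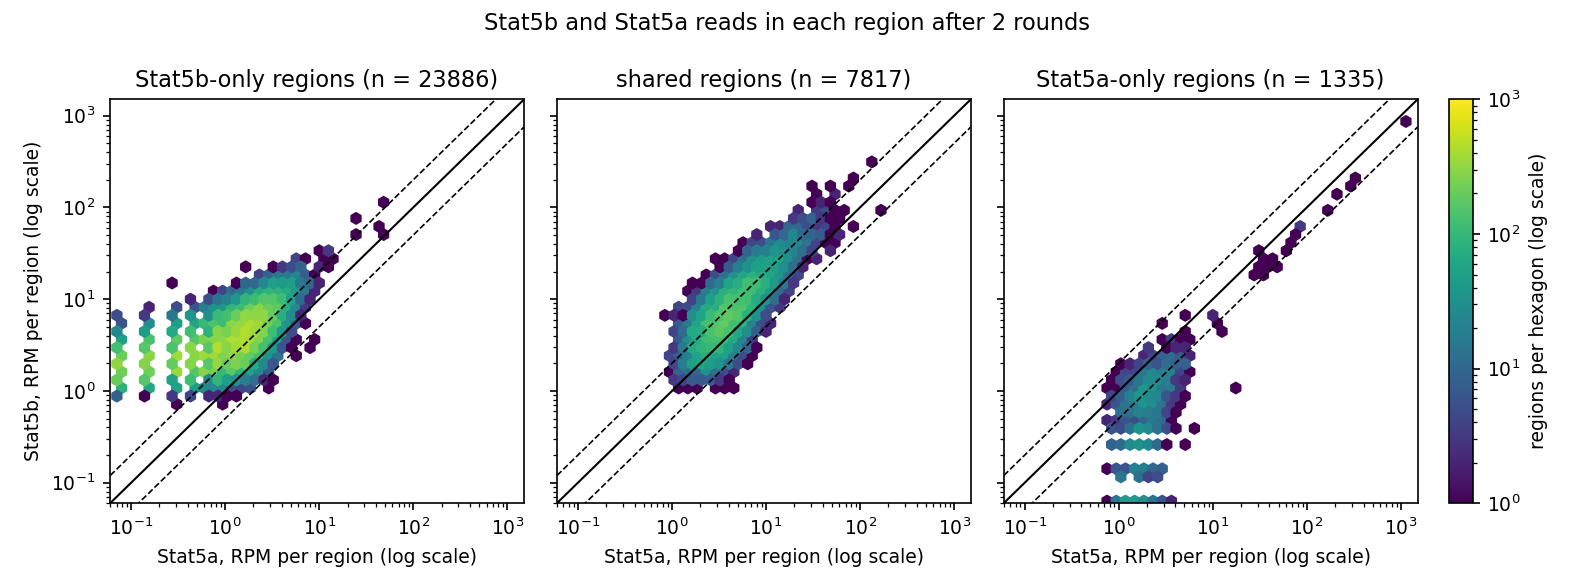
Stat5b level against Stat5a level (both RPM per region, log scales) after 2 rounds in Stat5b-only, shared and Stat5a-only regions; colour gives the number of regions per hexagon, the solid line marks equal levels, the dashed lines a ratio of 2 and of 0.5, and a count of 0 is drawn at 0.5 reads. Most shared regions lie above the solid line (86.3%), and the few Stat5a-only regions at the upper right are those with high IgG levels.

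A region was called higher or lower in Stat5b when its ratio had a 95% interval entirely above 2 or entirely below 0.5. By this rule 7518 of the 33038 regions were higher (22.8%) and 185 were lower (0.56%). Higher calls were 97.6% of all calls. Scaled instead so that the median shared region had equal levels, 1379 regions were higher and 581 lower, and 70.4% of calls were higher. On the main scale the higher regions comprised 915 shared and 6603 Stat5b-only regions, and the lower ones were all Stat5a-only. The peak lists of these same libraries gave 23886 Stat5b-only and 1335 Stat5a-only regions. The split of calls therefore in part restates the lists. On distinct starts 3105 regions were higher (9.4%) and 12 lower (0.0363%), of which 2961 and 12 were called on all reads too. Of the 2961, 406 were shared. Among shared regions the interval lay wholly above 1 in 4267 regions, 3451 of them also on distinct starts. It lay wholly below 1 in 108 regions, 5 of them also on distinct starts. As a comparison outside the 2-round lists, the 10835 regions with a peak at 8 h or 13 h but none after 2 rounds gave 81 higher calls (0.748%) and 32 lower calls (0.295%) between the same Stat5b and Stat5a libraries. On distinct starts 6 of them were called higher (0.0554%) and 0 lower. They were selected for having no peak in these same libraries, which limits the calls in advance. Their rates are therefore no background for the rates above.

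Both factors were then set against IgG, whose use in the authors' peak calling is not stated in the sources used here. In shared regions Stat5b was 11.9 times (11.7 to 12) and Stat5a 6.30 times (6.22 to 6.39) the IgG level, summed over distinct starts. In Stat5b-only regions Stat5b was 6.15 times (6.10 to 6.20) and Stat5a 1.92 times (1.90 to 1.94) the IgG level, so Stat5a reads were above IgG in sum where no Stat5a peak was listed. In single regions the Stat5a excess was seldom resolved. The interval of Stat5b over IgG lay wholly above 1 in 94.1% of the Stat5b-only regions, and that of Stat5a over IgG in 22.8% of them. On distinct starts these shares were 85.5% for Stat5b and 6.19% for Stat5a. Over all 33038 regions they were 92.2% for Stat5b and 41.7% for Stat5a on all reads, and 84.9% and 26.1% on distinct starts. In shared regions they were 98.7% for Stat5b and 92.7% for Stat5a on all reads.

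The share of regions with a Stat5b peak that also held a Stat5a peak went up with the Stat5b level. With these regions divided into 10 equal bins by Stat5b RPM, it was 4.32% (3.67 to 5.09) in the lowest bin, 15.4% in bin 5 and 76.8% (75.3 to 78.2) in the highest. The reverse share was higher throughout. Both shares count the same 7817 shared regions, and the Stat5a list is the shorter one (9791 against 33692 peaks). Over all bins together a higher reverse share therefore follows from the list lengths. Shared regions were also the wider ones, and RPM was taken per region, so width enters the bins. Of the regions with a Stat5a peak, 41.4% (38.3 to 44.6) of the lowest of 10 bins by Stat5a RPM also held a Stat5b peak, and in the upper 4 bins between 97.6% and 99.9% did. Even in Stat5b-only regions the sum of Stat5a distinct starts was above IgG in each of 10 bins by Stat5b level. It was 2.83 times (2.69 to 2.97) in the lowest and 1.63 times (1.58 to 1.68) in the highest. This class leaves out regions with a Stat5a peak, a larger share of the upper bins, so the decline follows in part from the class rule. With all regions holding a Stat5b peak, Stat5a was 3.17 times IgG in the lowest bin, 2.46 times in bin 5 and 4.98 times in the highest.

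**Figure D2:**
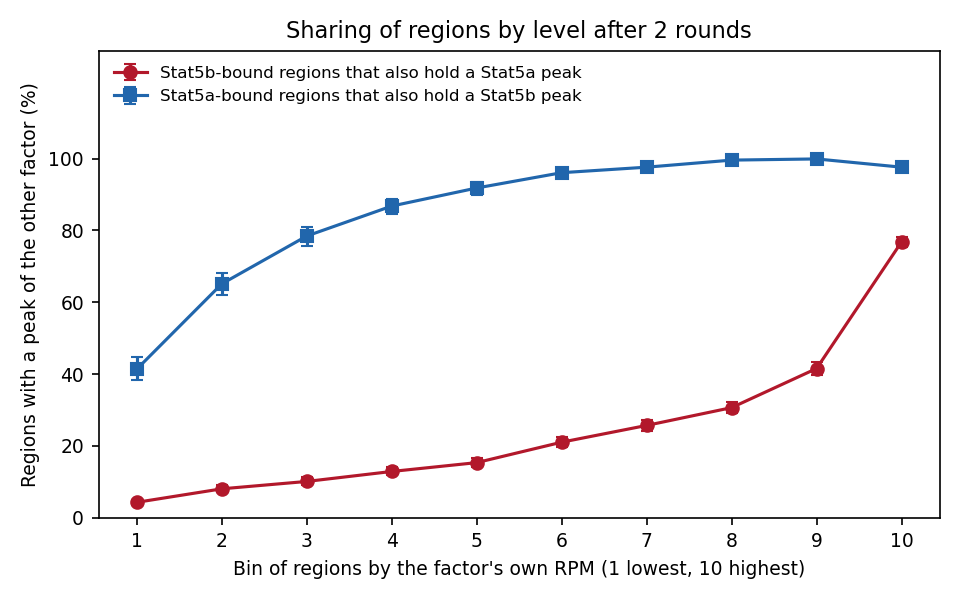
Share of regions (%) that also hold a peak of the other factor, in 10 equal bins of the factor's own RPM from lowest to highest; circles are regions with a Stat5b peak, squares regions with a Stat5a peak, and bars are Wilson 95% intervals. The Stat5b curve ends at 76.8%, and the Stat5a curve begins at 41.4% and is at 97.6% in the last bin.

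The shape of the signal was alike for both factors where both had a peak. Around the middle of shared regions the plus-strand reads lay upstream of the minus-strand reads, the pattern left by sequencing both ends of immunoprecipitated fragments. The centroids of the strands were 110 bp apart for Stat5b and 95 bp apart for Stat5a, after subtraction of the flanking level. The low IgG signal had an offset of the same sign, 90.8 bp. The central level was 10.1 times the flanking level for Stat5b, 8.71 times for Stat5a and 1.57 times for IgG. In the 1390 shared regions with at least 30 distinct starts of each factor, the Stat5b and Stat5a centres were a median of 23.8 bp apart. They were within 50 bp of each other in 74.9% and within 100 bp in 89.2% of these regions, whose median width was 1046 bp. In Stat5b-only regions the Stat5a profile had the same 2-strand form at a low height, with central levels 5.25 times the flank for Stat5b, 2.60 times for Stat5a and 1.59 times for IgG. The strand centroids there were 124 bp apart for Stat5b and 115 bp apart for both Stat5a and IgG. In Stat5a-only regions Stat5a was 7.75 times the flank, Stat5b 2.71 times and IgG 2.49 times.

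**Figure D3:**
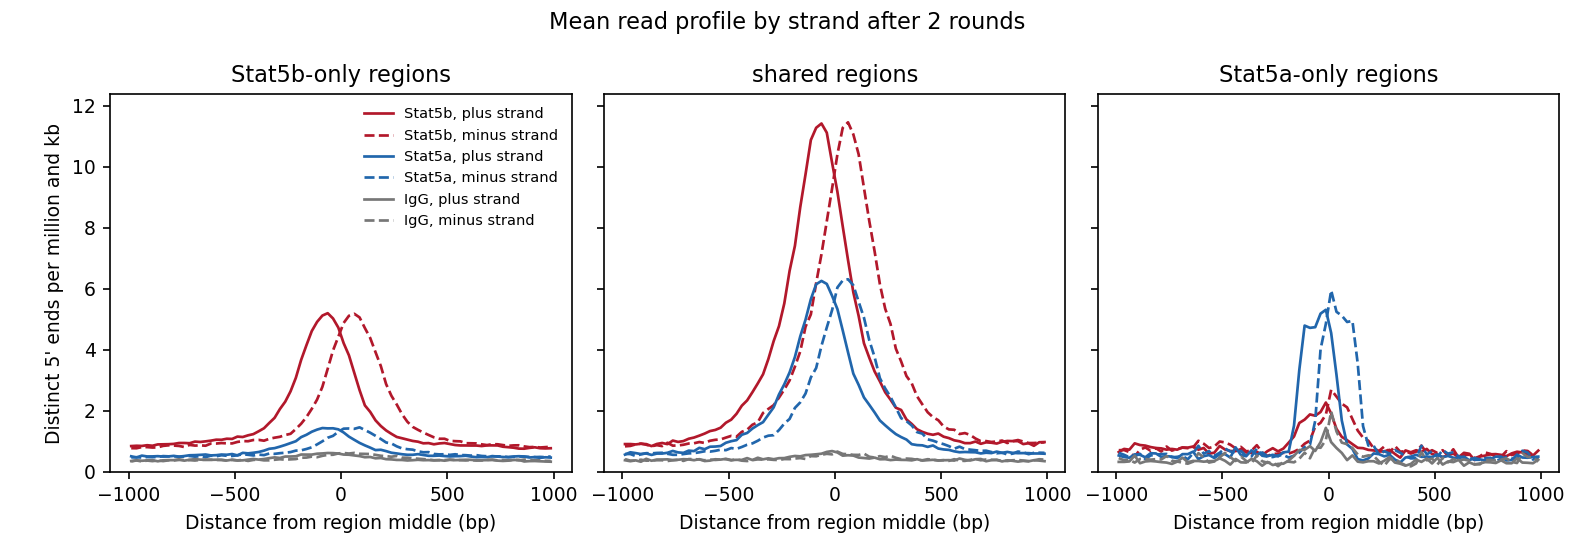
Mean profile of distinct 5′ ends (per 1000000 distinct starts and kb) by distance from the region middle (bp) for Stat5b, Stat5a and IgG, plus strand solid and minus strand dashed, in the 3 classes of regions without heaped ones. Stat5b and Stat5a have the same 2-strand form in shared regions, and a low Stat5a profile of that form is seen in Stat5b-only regions.

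The 8 h and 13 h libraries took no part in choosing the regions, so they give a separate reading of the same places. The order of the factors differed between the stages. Over the shared regions the summed Stat5b to Stat5a ratio was 0.496 (0.491 to 0.501) at 8 h, 1.38 (1.37 to 1.39) at 13 h and 1.87 after 2 rounds. Over the Stat5b-only regions it was 0.667 (0.661 to 0.673) at 8 h, 1.34 (1.33 to 1.35) at 13 h and 3.07 after 2 rounds. The median ratio at 13 h was 1.33 in both classes on all reads. On the log2 scale this is 0.41 in both. Reads of 24 bp made up 38.0% of the 13 h Stat5a library and 49.7% of the 13 h IgG library, and 0% of the 13 h Stat5b library. With 25 bp reads alone the 13 h medians were lower, 0.17 in shared and 0.27 in Stat5b-only regions. The other 13 h Stat5a values in this section use both lengths. Both factors were above IgG in Stat5b-only regions at 13 h, with Stat5b at 2.76 times and Stat5a at 2.11 times on distinct starts. At 8 h Stat5b was at 1.54 times and Stat5a at 2.16 times IgG there. Between 13 h and 2 rounds the Stat5b level of the Stat5b-only regions went up to 6.94 distinct starts per kb and 1000000 distinct starts of the library, against 2.53 at 13 h. The Stat5a level was 2.16 after 2 rounds and 1.93 at 13 h. These regions were selected for high Stat5b after 2 rounds, so the size of that gain is a description.

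**Figure D4:**
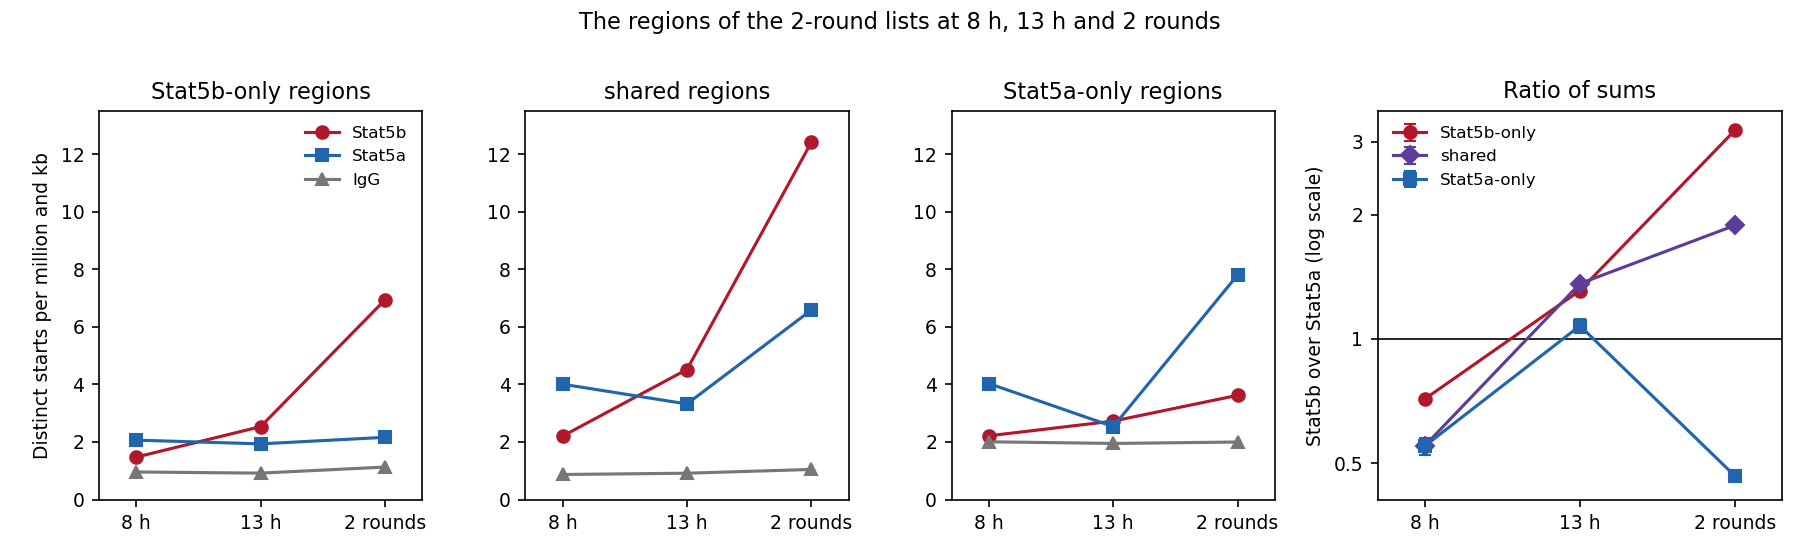
Levels of Stat5b, Stat5a and IgG in the 2-round regions at 8 h, 13 h and 2 rounds (distinct starts per kb and 1000000, first 3 panels), and the ratio of the sums of Stat5b over Stat5a with its 95% interval (log scale, last panel; intervals are mostly smaller than the symbols). On distinct starts the shared and Stat5b-only ratios are below 1 at 8 h (0.550 and 0.714) and nearly equal at 13 h (1.36 and 1.31), and they part after 2 rounds (1.89 and 3.21).

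Calls at the earlier stages were few. At 13 h 481 of the 33038 regions were higher in Stat5b (1.46%) and 117 lower (0.354%). At 8 h 8 were higher (0.0242%) and 1045 lower (3.16%). On distinct starts 33 were higher (0.0999%) and 4 lower (0.0121%) at 13 h, and 1 was higher (0.00303%) and 149 lower (0.451%) at 8 h. The 8 h Stat5b library had 6867047 reads and the 8 h Stat5a library 3130228, the lower depth of the pair. A deposited peak of either factor at 8 h or 13 h was present in 58.9% of the shared regions, in 30.4% of the Stat5b-only regions and in 13.9% of the Stat5a-only regions. At 13 h 51.6% of the shared regions held a Stat5b peak and 42.0% a Stat5a peak. At 8 h these shares were 18.4% for Stat5b and 29.9% for Stat5a.

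Shared regions with at least 20 distinct starts of each factor were ranked by their 2-round ratio and divided into 5 bins. The median 2-round ratio was 1.10 in the lowest bin and 2.95 in the highest, and each bin held between 517 and 597 regions. At 13 h the summed ratios of the same bins were 1.28, 1.34, 1.39, 1.42 and 1.44 from lowest to highest. The order was the same over a smaller range. At 8 h the summed ratios were 0.491 in the lowest bin and 0.569 in the highest. Because the bins were ranked on the 2-round ratio, its range and the 2-round levels of the bins follow in part from the sort. The smaller range at 13 h therefore does not measure a change between the stages. After 2 rounds the Stat5b level was 11.9 distinct starts per kb and 1000000 in the lowest bin and 19.7 in the highest. The Stat5a level was 11.1 in the lowest bin and 6.43 in the highest. The median width was 777 bp in the lowest bin and 1129 bp in the highest, so regions with the largest Stat5b excess were also the wider ones.

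The 10 shared regions with the most reads above IgG held between 100 and 322 RPM of Stat5b, between 29.5 and 139 RPM of Stat5a and between 1.38 and 4.67 RPM of IgG. All 10 had more Stat5b than Stat5a, with ratios between 1.53 and 5.27, and 9 of them were called higher. On distinct starts the ratios were between 1.38 and 3.40 and 5 were called. At 13 h each of the 10 also had a ratio above 1 (1.22 to 1.64), and at 8 h each was below 1 (0.350 to 0.705). Locus names in the next paragraphs are working names from background knowledge of where these genes lie. No mm8 gene table was used here, so no distance to a gene was measured.

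The strongest region lay on chromosome 9 from 107153387 to 107156833, at the locus of Cish, which encodes a feedback inhibitor of Stat5 signalling. It held 322 RPM of Stat5b (2467 reads), 139 RPM of Stat5a (925 reads) and 3.63 RPM of IgG (21 reads), a Stat5b to Stat5a ratio of 2.31 (2.15 to 2.50). On distinct starts the ratio was 1.72 (1.53 to 1.94), so the excess was smaller when repeated starts were set aside. At 13 h the region held 119 RPM of Stat5b and 87.8 RPM of Stat5a, and at 8 h 41.1 RPM of Stat5b and 94.6 RPM of Stat5a. Stat5b was thus lowest at 8 h and highest after 2 rounds. Stat5a was also highest after 2 rounds, and its levels at 13 h (730 reads) and 8 h (296 reads) were close.

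Next in rank was a region on chromosome 16 from 23902784 to 23904880, at the locus of Bcl6, a transcriptional repressor needed by follicular helper T cells. It held 205 RPM of Stat5b, 79.2 RPM of Stat5a and 2.25 RPM of IgG, with a ratio of 2.60 (2.35 to 2.87). A region on chromosome 10 from 94844625 to 94848058, at the locus of Socs2, another inhibitor of cytokine signalling, held 164 RPM of Stat5b, 48.5 RPM of Stat5a and 4.15 RPM of IgG. Its ratio was 3.39 (3.0 to 3.84) after 2 rounds, 1.22 at 13 h and 0.350 at 8 h. On distinct starts the 2-round ratio was 2.20 (1.86 to 2.60), which did not meet the rule. Its Stat5a level was 66.1 RPM in the 25 bp reads and 33.7 RPM in the 24 bp reads.

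Socs1 encodes another inhibitor of this family, and the region at its locus, on chromosome 16 from 10685041 to 10686553, held 124 RPM of Stat5b, 34.9 RPM of Stat5a and 1.38 RPM of IgG. The ratio was 3.54 (3.07 to 4.11) on all reads and 2.83 (2.28 to 3.54) on distinct starts. The most uneven of the 10 on all reads was on chromosome 17 from 34812280 to 34813817. It held 156 RPM of Stat5b, 29.5 RPM of Stat5a and 2.42 RPM of IgG, a ratio of 5.27 (4.53 to 6.17). On distinct starts the ratio was 3.04 (2.46 to 3.78), below the 3.40 (2.78 to 4.20) of the region on chromosome 11 from 117783894 to 117786459. Set against Stat5a reads of 25 bp it was 7.59 and against those of 24 bp 4.20, where the chromosome 11 region was at 2.87 and 6.72, so the order of these regions changed with the counting. The most even was on chromosome 6 from 124715655 to 124716745, with 100 RPM of Stat5b, 65.6 RPM of Stat5a and 1.38 RPM of IgG. Its ratio of 1.53 (1.36 to 1.72) did not meet the rule.

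**Figure D5:**
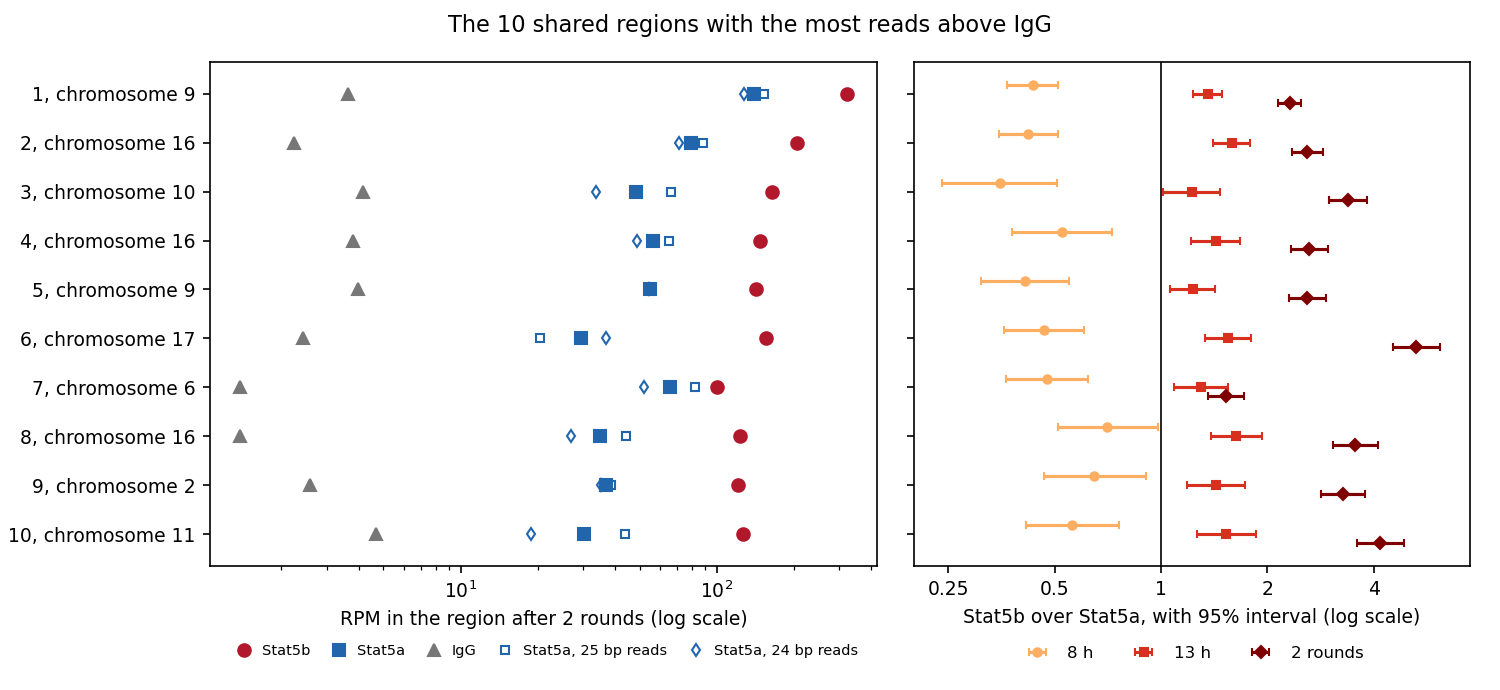
The 10 shared regions with the most reads above IgG, numbered by rank: RPM of Stat5b, Stat5a (all reads, and the 25 bp and 24 bp reads as open symbols) and IgG after 2 rounds on the left (log scale), and Stat5b over Stat5a with its 95% interval at 8 h, 13 h and 2 rounds on the right (log scale). In all 10 regions the ratio is below 1 at 8 h and above 1 at the later stages.

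Regions were grouped where gaps were under 10 kb, and the groups with the most reads above IgG were set side by side. The Cish group spanned 25.4 kb of chromosome 9 with 14 regions, 6 of them shared and 8 Stat5b-only. Summed, it held 620 RPM of Stat5b, 278 RPM of Stat5a and 21.1 RPM of IgG, a ratio of 2.23 (2.12 to 2.36). Within it the 5 regions with at least 20 reads of each factor had ratios between 1.41 and 2.59.

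The group on chromosome 2 from 11533859 to 11582935 lies at Il2ra, the gene of the IL-2 receptor alpha chain. It had 21 regions, 13 of them shared, with 359 RPM of Stat5b, 211 RPM of Stat5a and 27.6 RPM of IgG. The summed ratio of 1.70 (1.59 to 1.81) was the lowest of the 6 groups examined. Among the 15 regions with at least 20 reads of each factor the ratio went from 0.940 to 2.84. At its upper end were the region from 11534507 to 11535493, with 51.3 RPM of Stat5b and 18.1 RPM of Stat5a (ratio 2.84, 2.31 to 3.52), and that from 11568984 to 11570075, with 31.3 RPM of Stat5b and 11.3 RPM of Stat5a (ratio 2.78, 2.13 to 3.65). The region from 11547310 to 11548960, between them, held 43.4 RPM of Stat5b and 31.5 RPM of Stat5a (ratio 1.38, 1.16 to 1.65). On all reads its interval lies below those of the other regions just named, which were picked as the extremes of the locus. On distinct starts its ratio was 1.56 (1.21 to 2.03), against 2.68 (2.00 to 3.63) and 3.0 (2.07 to 4.44) for them, and the first of these intervals overlaps its own.

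The Th2 cytokine group, on chromosome 11 from 53432928 to 53507165, covers the interval of Il4 and Rad50 that holds the locus control region of the cytokine genes. Its 19 regions, 10 of them shared, summed to 287 RPM of Stat5b, 141 RPM of Stat5a and 19.2 RPM of IgG, a ratio of 2.03 (1.88 to 2.20). The region from 53493981 to 53495240 was the highest, with 55.1 RPM of Stat5b and 20.3 RPM of Stat5a (ratio 2.71, 2.23 to 3.32). The neighbouring region from 53497643 to 53499186 held 46.6 RPM of Stat5b and 25.7 RPM of Stat5a (ratio 1.81, 1.51 to 2.19). A Stat5b-only region of the group, from 53479344 to 53480078, held 9.93 RPM of Stat5b and 2.26 RPM of Stat5a.

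The Socs1 group on chromosome 16 from 10657766 to 10702654 had 19 regions and 331 RPM of Stat5b, 104 RPM of Stat5a and 23.3 RPM of IgG, a ratio of 3.18 (2.92 to 3.46). A group on chromosome 1 from 108409276 to 108448593, at the locus of Bcl2, an inhibitor of apoptosis, had 12 regions with 265 RPM of Stat5b, 135 RPM of Stat5a and 11.2 RPM of IgG. Its ratio was 1.96 (1.81 to 2.13). On chromosome 17, a group of 23 regions from 34772545 to 34850430 had 324 RPM of Stat5b, 90.9 RPM of Stat5a and 22.1 RPM of IgG. Its ratio of 3.57 (3.26 to 3.91) was the highest of the 6. On distinct starts the groups of chromosome 16 and chromosome 17 had ratios of 2.91 (2.59 to 3.27) and 2.89 (2.56 to 3.27), and the other 4 groups lay between 1.77 and 2.03.

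The largest ratios belonged to regions in which the Stat5a library had no read. The 10 regions at the top of the ranking were all Stat5b-only, with 39 to 53 Stat5b reads (5.09 to 6.92 RPM), 0 Stat5a reads and 0.346 to 1.38 RPM of IgG. With Stat5a set at a floor of 3 counts per library they were at least 11.3-fold to at least 15.3-fold higher in Stat5b on all reads, and at least 5.48-fold to at least 10.1-fold higher on distinct starts. After 2 rounds the interval of Stat5a over IgG lay wholly below 1 in some of the 10 regions and reached above 1 in others. Its upper limits went from 0.510 to 4.64. In the former regions the ratio was thus taken against a Stat5a level below that of IgG. The first of the 10 lay on chromosome 4 from 43046368 to 43047181, with 6.92 RPM of Stat5b and 1.38 RPM of IgG. At 13 h this region held 4.43 RPM of Stat5b, 2.41 RPM of Stat5a and 0.532 RPM of IgG. Each of the 10 regions had Stat5a reads at 13 h, between 0.602 and 2.41 RPM, but not all were above background. The region on chromosome 3 from 36880450 had 0.602 RPM of Stat5a (5 reads) against 1.2 RPM of IgG (9 reads), and that on chromosome 12 from 85766249 had 0.602 RPM of Stat5a against 0.664 RPM of IgG. Among regions with a peak of both factors the largest ratio was 10.2 (6.31 to 17.6), on chromosome 3 from 94394999 to 94395876, with 27.7 RPM of Stat5b, 2.71 RPM of Stat5a and 1.38 RPM of IgG. On distinct starts it was 6.57 (3.76 to 12.4), and at 13 h 1.29 on all reads.

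Stat5b-only regions reached high levels in places. The 5 with the most Stat5b above IgG held between 29.4 and 72.6 RPM of Stat5b and between 5.12 and 25.7 RPM of Stat5a, so Stat5a reads were also present in all 5. A region on chromosome 5 from 110893091 to 110894191 held 29.4 RPM of Stat5b, 5.12 RPM of Stat5a and 1.73 RPM of IgG, a ratio of 5.74 (3.99 to 8.50). The region with 72.6 RPM of Stat5b, on chromosome 17 from 35839210 to 35840022, had an IgG level of 48.2 RPM, above its Stat5a level of 25.7 RPM.

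Regions that favoured Stat5a were few on the main scale and had low RPM per region. Calls of lower were 185 there and 581 when scaled by the median ratio of shared regions. Stat5a-only regions had a median width of 269 bp, against 708 bp for shared ones. Per kb and scaled to the library, Stat5a distinct starts summed to 7.80 in Stat5a-only and 6.58 in shared regions. The former sum includes the high-IgG regions described below. Low RPM per region thus does not by itself mean a low level per kb. The 5 Stat5a-only regions with the most Stat5a above IgG held between 0.392 and 2.09 RPM of Stat5b and between 5.27 and 5.72 RPM of Stat5a. Of these 5, 2 were called lower in Stat5b on all reads and 0 on distinct starts. The called region on chromosome 5 from 32330561 to 32330960 held 11.6 RPM of Stat5a in the 25 bp reads and 0.829 RPM in the 24 bp reads, so its Stat5a level rested on 1 read set. One region alone met the full rule for a named lower region, on chromosome 4 from 102149716 to 102150138. It held 0.261 RPM of Stat5b (2 reads), 4.82 RPM of Stat5a (32 reads) and 0.173 RPM of IgG (1 read), a ratio of 0.0542 (0.00630 to 0.213). Its Stat5a level was 5.95 RPM in the 25 bp reads and 3.87 RPM in the 24 bp reads. At 13 h it held 0.111 RPM of Stat5b and 0.241 RPM of Stat5a.

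In the sum over Stat5a-only regions, 23 regions with at least 10 RPM of IgG held 65.2% of the Stat5b reads, 50.9% of the Stat5a reads and 91.5% of the IgG reads of the class. Without them Stat5b over Stat5a was 0.383 (0.373 to 0.394), Stat5b was 3.03 times and Stat5a 7.89 times the IgG level. With them the ratio of Stat5b to Stat5a was 0.540 (0.531 to 0.549) and Stat5a was 1.36 times IgG. Of the 5 shared regions whose intervals lay wholly below 1 on all reads and on distinct starts, the one with the most Stat5a above IgG lay on chromosome 16 from 48696781 to 48697575. It had 4.96 RPM of Stat5b, 11.3 RPM of Stat5a and 0 reads of IgG. Its ratio was 0.440 (0.290 to 0.658) after 2 rounds and 2.12 at 13 h. The other 4 of them had ratios between 0.372 and 0.533, and none of the 5 was called.

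The Stat5a reads of 25 bp and of 24 bp were set against each other by the same rule, as a measure of how far read sets of 1 deposited library differ. Over all regions 1161 were higher in the 25 bp reads (3.51%) and 849 lower (2.57%), and on distinct starts 181 (0.548%) and 111 (0.336%). In the IgG library, where most reads were 24 bp long, 589 were higher in the 25 bp reads (1.78%) and 5 lower (0.0151%), and on distinct starts 77 (0.233%) and 0. In shared regions 867 of 7817 were called in either direction (11.1%), and 177 on distinct starts (2.26%). Summed over Stat5b-only regions the 25 bp level of Stat5a was 1.44 times (1.43 to 1.45) the 24 bp level, and over shared regions 0.960 times (0.954 to 0.967). In the IgG library the same sums gave 1.46 (1.44 to 1.48) and 1.07 (1.04 to 1.09). A higher 25 bp level in Stat5b-only regions was thus not particular to Stat5a. The Stat5b excess over Stat5a in Stat5b-only regions was 2.56 (2.54 to 2.57) against the 25 bp reads and 3.68 (3.66 to 3.71) against the 24 bp reads. In shared regions it was 1.91 (1.90 to 1.92) and 1.84 (1.83 to 1.85). A ratio above 1 against both read sets was found in 67.9% of the shared regions, in 90% of the Stat5b-only regions and in 0.824% of the Stat5a-only regions. The call of higher held against both in 1462 of the 33038 regions, 257 of them shared. On distinct starts it held against both in 186, 58 of them shared. Against the whole Stat5a library the counts were 7518 (22.8%) and 3105 (9.4%). Each set has fewer reads than the whole library.

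The same limit showed in the spread between strong regions. In the 473 shared regions with at least 50 distinct starts of each factor, the median log2 ratio of Stat5b over Stat5a was 0.78 and its SD across regions 0.46. Counting error alone would give an SD of 0.21. Between the 25 bp and 24 bp Stat5a reads the SD in the same regions was 0.93, against 0.40 from counting error. The variation of the Stat5b to Stat5a ratio from one strong shared region to the next was thus no larger than that between the read sets of the Stat5a library itself, while the median shift toward Stat5b was present against either set (0.94 against the 25 bp reads and 0.73 against the 24 bp reads, log2).

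By chromosome the summed ratio of the shared regions on distinct starts lay between 1.75 and 2.05 on the autosomes and was 1.43 (1.36 to 1.5) on the X chromosome, which held 124 of the shared regions. Outside the regions of all lists, the X chromosome took up 4.49% of the Stat5b reads, 5.36% of the Stat5a reads and 5.22% of the IgG reads, a Stat5b to Stat5a ratio of 0.838. On the autosomes the outside ratio went from 0.936 (chromosome 3, shared ratio 1.82) to 1.13 (chromosome 11, shared ratio 2.00). The part of the background difference in the lower X ratio was not tested. Stat5b-only and Stat5a-only regions lay at like distances from shared ones. The median distance to the nearest shared region was 45 kb for Stat5b-only and 44.1 kb for Stat5a-only regions, against 22.3 kb between shared regions, and 22.6%, 24.8% and 36.2% in the same order lay within 10 kb.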

How the data were processed

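The deposited values are the start and end, in bp of the mm8 build, of each mapped read and of each peak the authors listed; peaks carry no height or score. Aligner, peak caller, threshold and any use of IgG are not stated in the sources used here. The members and lists were chosen with earlier results of these data known. Reads were counted by 5′ end, with 24 bp starts moved 1 bp upstream, in regions joined at 1 bp overlap or more, and scaled per 1000000 reads of the library. A region was treated as heaped, and kept out of named regions, profiles and stage sums, when a library with at least 20 reads there had over 50% of them at 1 start and strand (16 regions). Named were the 10 shared regions with the most mean RPM above IgG, up to 10 called regions per direction with the largest ratio (at least 30 reads in the higher library, called on distinct starts too, ties at 0 ordered by reads) and 5 regions of each single-factor class. The 5 shared regions of largest ratio, the lower shared regions, the 6 groups and the 10 RPM limit on IgG were chosen after the values were seen. The rule for calls was also tried on simulated Poisson counts, with 100 regions raised and 100 lowered among those with many reads. That simulation does not cover PCR copies or differences between read sets. Alternatives were distinct starts, other scalings, read lengths alone, reads moved 75 bp, 500 bp windows, IgG subtraction, a 20-read minimum, other overlaps and pooled IgG. Gene positions and sequences of regions were not used, because the reference tables are of another build. Counts and intervals were computed with scipy 1.17.1, pandas 2.3.3 and numpy 2.4.6 in Python 3.11.15, and plots with matplotlib 3.10.9.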

Additional observations from a re-analysis of the deposited data

Results flagged for a closer look

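The Stat5b to Stat5a ratio summed over shared regions was 0.496 at 8 h, below 1, where the ratios at 13 h (1.38) and after 2 rounds (1.87) were above 1. Over Stat5b-only regions it was 0.667 at 8 h, and 1.34 and 3.07 at the later stages. Stages thus stood on opposite sides of equal levels. Each value comes from 1 Stat5b and 1 Stat5a library, and the difference between stages was not tested.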

How the results depend on the processing

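The counts of regions higher and lower in Stat5b (7518 and 185 in the report) were 3105 and 12 on distinct starts, 4866 higher with 25 bp reads alone, 11681 higher after subtraction of IgG, and 33 lower with at least 20 reads. Scaled by the median ratio of shared regions, a shift of -0.77 (log2) that sets their median to 0, they were 1379 and 581, and 70.4% of calls were higher against 97.6%. The following alternatives were chosen after seeing the data: 24 bp Stat5a reads alone (114 lower), and regions with an 8 h or 13 h peak (3027 higher, 11 lower).

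Median log2 ratios are given in the order shared, Stat5b-only, Stat5a-only, with 0.77, 1.74 and -1.53 in the report. Scaled to reads outside regions (a shift of 0.18) they were 0.95, 1.92 and -1.35, scaled by the shared median 0, 0.98 and -2.29, after IgG subtraction 0.87, 2.43 and -1.94, with 24 bp Stat5a reads 0.83, 2.09 and -1.34, and in regions with an earlier peak 0.89, 1.66 and -0.97. The Stat5b-only and Stat5a-only medians were 1.72 and -1.28 on distinct starts, 1.70 and -1.10 in 500 bp windows, and 1.63 and -1.05 with at least 20 reads. With 25 bp reads the shared and Stat5a-only medians were 0.88 and -1.60, and with reads moved 75 bp the Stat5b-only median was 1.70.

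With 50% of both peaks required, 4415 regions were shared (7817 in the report). The upper 50% of each list gave 4107 shared, 12211 Stat5b-only and 572 Stat5a-only regions. The share of regions with an interval over IgG wholly above 1 is given for Stat5b then Stat5a. Pooled IgG gave 99.7% and 98.1% in shared, 99.4% and 40.4% in Stat5b-only, and 40.8% and 93.5% in Stat5a-only regions. Distinct starts gave 96.8% and 82%, 85.5% and 6.19%, and 4.64% and 55.6%. With 25 bp reads alone, and 1315025 of the 5787254 IgG reads, they were 78.4% and 45.9%, 36.6% and 5.88%, and 0.449% and 19.3%.

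At 13 h the median log2 ratio in Stat5a-only regions was 0.20 and on distinct starts -0.026, the one reversal; the cause was not tested. The 13 h shared and Stat5b-only medians (both 0.41) were 0.43 and 0.43 scaled to reads outside and 0.17 and 0.27 with 25 bp reads, and the Stat5b-only one was 0.37 on distinct starts. At 8 h distinct starts gave -0.78 in shared and -0.31 in Stat5b-only regions, against -0.94 and -0.37. For the 41 named regions, 394 of 438 values kept their direction and call, 27 lost the call, 15 gained it and 2 uncalled ratios crossed 1. The region of chromosome 6 from 124715655 to 124716745 was at 0.898 scaled by the shared median, and a Stat5a-only region of chromosome 3 from 133254591 was at 1.18 with 24 bp Stat5a reads. No paired analysis was possible because each antibody and stage has 1 library and the labels carry no replicate numbers. Depth limits single regions: the median Stat5b-only region held 26 Stat5b reads and 8 Stat5a reads.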

Other observations

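Outside the regions of all lists the Y chromosome took up 0.0121% of the Stat5b reads, 0.0238% of the Stat5a reads and 0.0180% of the IgG reads after 2 rounds. Reads outside the regions made up a share of the Stat5b library that was 0.883 times that of the Stat5a library, and the Stat5a share was 0.951 times that of IgG.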
